A study of Caenorhabditis elegans with 12 samples.

Results

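Larvae of Caenorhabditis elegans fed dihomo-gamma-linolenic acid (DGLA) were compared with larvae fed gamma-linolenic acid (GLA), which has the same double bonds counted from the methyl end and is shorter by a carbon pair. The comparison takes in the 3 DGLA arrays and the 3 GLA arrays, 6 of the 12 arrays of the series, chosen by their labels alone, and every probe set on them. The other 6 arrays, 3 of linoleic acid (LNA) and 3 of vehicle control, lent their spread to the test, and the control arrays show where an untreated level lay. All animals were of the wild-type strain N2, synchronised at hatching and raised from the first larval stage at 20 °C on nematode growth medium with Escherichia coli OP50 until the fourth larval stage (L4). Each acid was present at 1000 µM in 1% ethanol by volume, and the control medium held the ethanol alone. RNA came from many whole larvae together, so that fewer cells of a type and less RNA per cell cannot be told apart, and the amount of acid taken up was not among the measurements used here. The design text calls the arrays of a group biological replicates. Where they did not come from separate cultures, the p-values measure only the spread between these samples.

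In C. elegans, linoleic acid is desaturated to GLA by FAT-3, GLA is lengthened to DGLA by the elongase ELO-1, and DGLA is desaturated to arachidonic acid by FAT-4. DGLA fed in excess is known in this animal for causing the death of germ cells and sterility, while GLA is mostly studied as its precursor. Fatty acids of these kinds are burnt by beta-oxidation in mitochondria and peroxisomes, and cytochrome P450 enzymes turn them into signalling oxylipins. Many genes of the gut that handle foreign compounds or defend against microbes also answer to dietary lipid.

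Values are log2 signals, normalised between arrays by the authors, for 29317 probe sets, and 25478 genes are represented by a probe set that names 1 gene. The medians of the 12 arrays lay between 4.47 and 4.56 and their lower quartiles between 2.90 and 2.99. A difference of 1 is a 2-fold difference in signal. Correlations across probe sets were 0.9923 to 0.9943 among the DGLA arrays, 0.9936 to 0.9944 among the GLA arrays and 0.9913 to 0.9940 between the groups. The first principal component of these 6 arrays (27.6% of the variance) set array DGLA 1 (-36.1) apart from the other 5 (1.41 to 17.96). The second (20.1%) held DGLA 2 (-17.4) and DGLA 3 (-21.9) below the GLA arrays (4.42 to 16.7), while DGLA 1 (6.496) lay among those. Over all 12 arrays the LNA 2 and LNA 3 arrays lay apart, so results are also given without them. Of 99 markers of tissues and stages, 95 were measured, and 0 passed limma's test between the acids. DGLA and GLA arrays did not overlap in 14 of the 95 (10.8% of all genes). The 95% interval lay within a 2-fold difference in 84 of the 95 (98.6% of all genes). Of these 95, 2 were below the lowest lower quartile in both groups. Intestinal markers were present, with a list mean of 9.27 to 9.42 over the 6 arrays.

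The acids differed by more than the spread between arrays in few genes. Higher with DGLA were cdr-4 of the cadmium responsive family (2.53-fold), cpt-4 of the carnitine palmitoyltransferase family (2.51-fold), nta-1 (3.23-fold), the kinase-like gene T16G1.6 (2.41-fold), the steroid dehydrogenase family gene stdh-2 (3.15-fold), the cytochrome P450 gene cyp-33C2 (2.35-fold) and F25D1.5 (1.92-fold). Lower with DGLA were the UDP-glucuronosyltransferase genes ugt-37 (4.02-fold) and ugt-35 (1.81-fold), the cytochrome P450 gene cyp-13A12 (2.52-fold), and the CUB-like domain genes irg-5 (2.82-fold), C32H11.4 (2.07-fold) and F55G11.8 (1.94-fold). The lectin domain gene clec-174 (2.13-fold), the lysozyme gene lys-2 (1.72-fold), the cysteine synthase family gene cysl-2 (1.57-fold) and F09C8.1 (2.09-fold) were lower as well. These 17 genes, 7 higher and 10 lower, were all of the 25478 that passed an adjusted p of 0.05, or 0.0667% of the genes tested (0.0275% higher and 0.0392% lower). All 17 are protein-coding, 12 of them differed at least 2-fold, and in each of the 17 the 3 DGLA arrays did not overlap the 3 GLA arrays. That was so for 2761 of all genes, 10.8%. An unadjusted p under 0.05 was reached by 1285 genes, 5.04%. Against control, adjusted p-values passed in 0.542% of genes with DGLA (0.33% higher, 0.212% lower) and 0.247% with GLA (0.165% higher, 0.0824% lower).

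Counted by probe set, 22 of 29317 passed (0.075%), 10 higher (0.0341%) and 12 lower (0.0409%) with DGLA. Besides the 17 named genes these were 3 probe sets without a symbol, all higher, and 2 that carry several symbols. Only 20 of the 22 were distinct in value, and only 2 of the 3 without a symbol. The 2 with several symbols repeat each other's values on all 12 arrays. The last pair was at 7.22, 6.85 and 6.997 on the DGLA arrays, against 8.58, 8.55 and 8.66 on the GLA arrays (adjusted p = 0.00425). Over all genes the median difference was 0.00163, and 98.6% of the genes had a 95% interval that lay wholly within a 2-fold difference in either direction. Differences of 2-fold or more, called or not, were measured in 16 genes, 9 higher and 7 lower, and 12 of these were called.

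**Figure D1:**
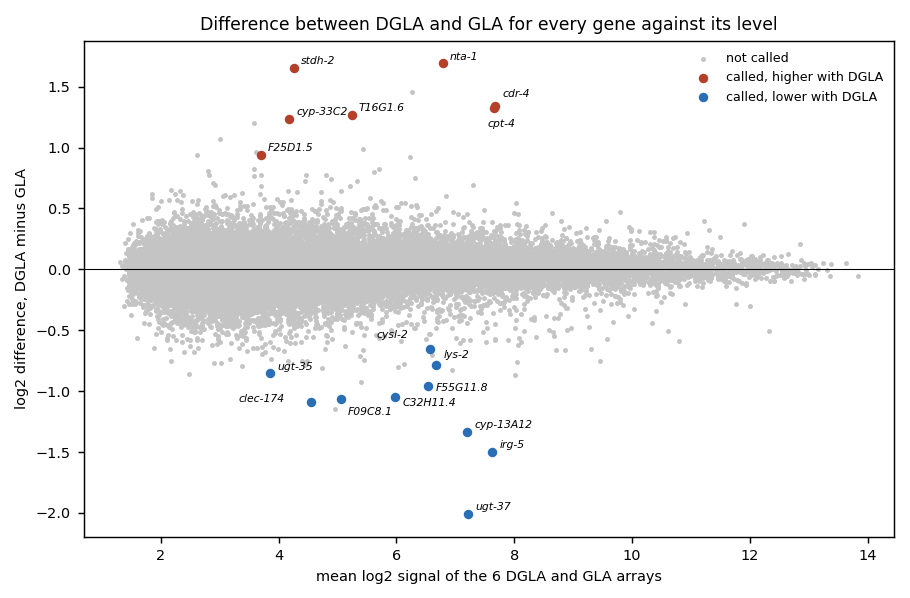
Difference between DGLA and GLA on the log2 scale (vertical axis, DGLA minus GLA) against the mean log2 signal of the 6 arrays (horizontal axis) for each of 25478 genes. The 7 genes called higher with DGLA (red) and the 10 called lower (blue) are labelled, and grey points are genes that were not called, some of which differ as much at the same signal (T16G1.7, at 1.46, is the highest grey point).

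Among the genes higher with DGLA, cdr-4 and cpt-4 had the smallest adjusted p. The gene cdr-4 (K01D12.11) was at 8.41, 8.31 and 8.31 on the DGLA arrays, against 7.02, 7.07 and 6.92 on the GLA arrays (difference 1.34, SE 0.0870, adjusted p = 6.97e-05). Control arrays lay lower still, at 6.49, 6.44 and 6.46, so that GLA lay between DGLA and control. Differences from control were 1.88 with DGLA (adjusted p = 2.82e-06) and 0.54 with GLA (adjusted p = 0.027), and these share the control arrays. Of the 5 measured members of its family only cdr-4 was called, in limma's test, where 0.0275% of all genes were called higher. Its relative cdr-6, outside the naming rule and chosen after its values were seen, averaged 8.66 with DGLA and 8.93 with GLA and did not pass.

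Carnitine palmitoyltransferases load acyl groups onto carnitine, the form in which they enter mitochondria. The family gene cpt-4 (K11D12.4) was at 8.28, 8.39 and 8.31 with DGLA, against 7.12, 6.996 and 6.88 with GLA (difference 1.33, SE 0.0868, adjusted p = 6.97e-05). Control arrays stood between the acids, at 7.70, 7.70 and 7.69. DGLA was thus 0.63 above control (adjusted p = 0.00505), and GLA differed from control by -0.70 (adjusted p = 0.0065). The LNA arrays, at 6.62, 6.72 and 6.59, were below those of every other group. Of the 6 family members measured, cpt-4 alone was called (0.0275% of all genes were called higher). In 4 of 6 the DGLA arrays lay above the GLA arrays without overlap (5.75% of all genes). The family's median difference was 0.22. The mitochondrial enzymes cpt-1 (difference 0.39) and cpt-2 (0.24), both outside the naming rule, did not pass.

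The gene nta-1 (F12E12.11) had the largest rise. It was at 7.98, 7.37 and 7.55 with DGLA, against 6.01, 5.94 and 5.88 with GLA and 5.36, 5.19 and 5.11 in control (DGLA minus GLA 1.69, SE 0.142, adjusted p = 0.000417). The 3 groups did not overlap, with GLA nearer to control than to DGLA. The kinase-like gene T16G1.6 had the same order, at 5.99, 5.74 and 5.89 with DGLA, against 4.67, 4.59 and 4.56 with GLA and 4.18, 4.29 and 4.38 in control (DGLA minus GLA 1.27, SE 0.103, adjusted p = 0.000397).

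T16G1.6 lies in a run of related genes. T16G1.7, next to it, was at 7.56, 6.65 and 6.78 with DGLA, against 5.51, 5.76 and 5.35 with GLA, a 2.74-fold difference that did not pass (SD 0.491 with DGLA and 0.206 with GLA, n = 3 each, adjusted p = 0.123). T16G1.5 on the other side of T16G1.6 differed by 0.35 and T16G1.4 beyond it by 0.42, and neither passed. These last values were looked up after the call of T16G1.6 was known. Of 13 measured genes whose names begin with T16G1, 1 was called (0.0275% of all genes were called higher), and the list's median difference was 0.03. DGLA arrays lay above GLA arrays without overlap in 3 of the 13 and below in 0 (5.75% and 5.08% of all genes).

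Other genes higher with DGLA had low signals on the GLA arrays. The gene stdh-2 (F11A5.12) was at 5.45, 4.45 and 5.38 with DGLA, against 3.68, 3.15 and 3.48 with GLA and 3.44, 3.54 and 3.40 in control (DGLA minus GLA 1.66, SE 0.228, adjusted p = 0.027). The GLA and control arrays overlapped, and DGLA 2 lay well below the other DGLA arrays. The gene cyp-33C2 (C45H4.17) was at 5.01, 4.51 and 4.86 with DGLA, against 3.60, 3.44 and 3.64 with GLA and 3.64, 3.95 and 3.67 in control (DGLA minus GLA 1.23, SE 0.153, adjusted p = 0.0127). Here too DGLA stood apart from the other groups. F25D1.5 was at 4.32, 3.99 and 4.19 with DGLA, against 3.16, 3.35 and 3.17 with GLA (difference 0.94, SE 0.116, adjusted p = 0.0127). Its control values of 2.25, 2.54 and 2.26 were under the lowest lower quartile, so no difference from control is given.

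**Figure D2:**
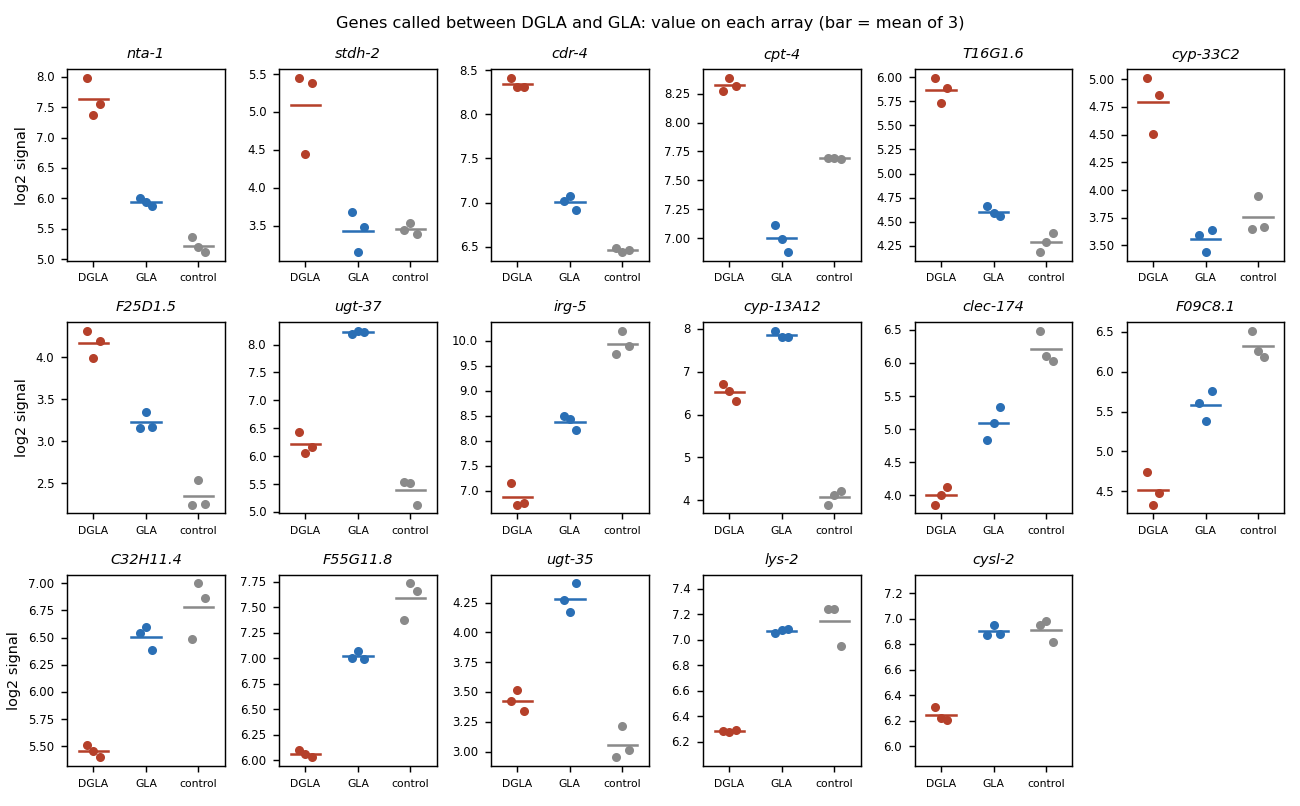
The log2 signal (vertical axes, scaled gene by gene) of the 17 called genes on each array, with DGLA in red, GLA in blue and control in grey, points for the 3 arrays of a group and a bar for their mean. DGLA and GLA arrays do not overlap in any panel, and control lies between the acids for cpt-4.

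The largest difference of all was in ugt-37 (F10D2.6). UDP-glucuronosyltransferases attach sugars to small fat-soluble molecules and so ready them for export. This gene was at 6.43, 6.05 and 6.16 with DGLA, against 8.20, 8.25 and 8.22 with GLA and 5.54, 5.52 and 5.13 in control (DGLA minus GLA -2.01, SE 0.156, adjusted p = 0.000318). Both acids lay above control, by 0.81 with DGLA (adjusted p = 0.0494) and 2.82 with GLA (adjusted p = 7.33e-06). The related ugt-35 (C32C4.7) was at 3.42, 3.52 and 3.34 with DGLA, against 4.27, 4.17 and 4.41 with GLA and 2.95, 3.21 and 3.01 in control (DGLA minus GLA -0.86, SE 0.116, adjusted p = 0.027). Of 67 members of the family these 2 were called lower and 0 called higher in limma's test (0.0392% and 0.0275% of all genes), with a median difference of 0.02. DGLA arrays lay above GLA arrays without overlap in 8 of the 67 and below in 10 (5.75% and 5.08% of all genes). The neighbour of ugt-35, ugt-34, looked up after that call was known, differed by -0.51 at a signal below the lower quartile and did not pass.

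The cytochrome P450 CYP-13A12 is known in C. elegans for acting on polyunsaturated fatty acids to make eicosanoids that govern movement after a loss and return of oxygen. Its gene (F14F7.3) was at 6.72, 6.55 and 6.32 with DGLA, against 7.96, 7.82 and 7.81 with GLA and 3.90, 4.13 and 4.23 in control (DGLA minus GLA -1.33, SE 0.144, adjusted p = 0.00425). It was thus far above control with both acids, and more so with GLA. Of the 13 measured CYP13 genes it was the only call, in limma's test, and the median difference of the family was 0.10. The adjacent gene cyp-13A11 differed by 0.17 and did not pass. Among all 74 cytochrome P450 genes 1 was called higher (cyp-33C2) and 1 lower (cyp-13A12), where the shares of all genes were 0.0275% and 0.0392%. Their median was -0.01. DGLA arrays lay above GLA arrays without overlap in 9 of the 74 and below in 8 (5.75% and 5.08% of all genes). The CYP35 family held no call among 10 genes. Its member nearest to one, cyp-35D1, was at 4.09, 4.11 and 4.10 with DGLA, against 5.02, 4.74 and 4.80 with GLA (adjusted p = 0.352).

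**Figure D3:**
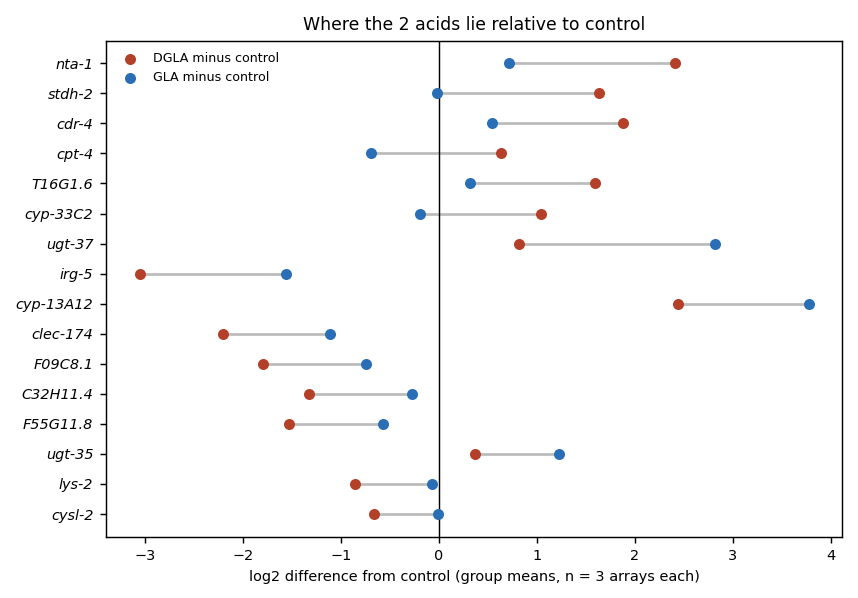
Group mean minus the control mean on the log2 scale (horizontal axis) for the called genes other than F25D1.5, whose control mean was too dim, with DGLA in red, GLA in blue and a grey line between them. Differences share the 3 control arrays. Where both acids lie on the same side of control, GLA is the farther from it for ugt-37, cyp-13A12 and ugt-35. The means of the acids lie on opposite sides of control for cpt-4, cyp-33C2 and, with GLA 0.02 below control, stdh-2.

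The genes of gut defence that differed were lower with DGLA. One of them, irg-5 (F35E12.5), encodes a CUB-like protein and answers to the p38 immune pathway. It was at 7.16, 6.72 and 6.76 with DGLA, against 8.49, 8.43 and 8.21 with GLA and 9.73, 10.20 and 9.89 in control (DGLA minus GLA -1.50, SE 0.222, adjusted p = 0.0403). Groups did not overlap, and GLA lay about midway. F55G11.8 was at 6.10, 6.06 and 6.03 with DGLA, against 6.998, 7.07 and 6.99 with GLA and 7.38, 7.73 and 7.66 in control (DGLA minus GLA -0.96, SE 0.135, adjusted p = 0.0323). C32H11.4 was at 5.51, 5.46 and 5.40 with DGLA, against 6.54, 6.59 and 6.38 with GLA and 6.49, 6.998 and 6.86 in control (DGLA minus GLA -1.05, SE 0.144, adjusted p = 0.027). For this gene GLA and control overlapped and DGLA alone lay apart.

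Of 16 measured CUB-like effector genes these 3 were called lower and 0 called higher in limma's test, where 0.0392% of all genes were called lower and 0.0275% higher. The median difference of the 16 was -0.39, and DGLA arrays lay below GLA arrays without overlap in 10 and above in 1, where the shares over all genes were 5.08% and 5.75%. The list was drawn up with earlier results of these data known, so its direction is not independent evidence. Its members dod-17 (difference -0.80, 95% interval -1.23 to -0.37, adjusted p = 0.472) and dod-22 (-0.52, interval -0.79 to -0.25, adjusted p = 0.451) did not pass. The gene mbug-1 differed the other way, at 4.73, 4.25 and 4.43 with DGLA, against 4.10, 4.03 and 4.12 with GLA (adjusted p = 0.91), both below the control values of 5.83, 6.16 and 6.37. Summed over members as a mean, the list stood at 5.64 to 5.90 on the DGLA arrays, against 6.12 to 6.28 with GLA and 6.69 to 6.86 in control. Those ranges did not overlap.

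The lectin domain gene clec-174 (Y46C8AL.2) was at 3.86, 4.01 and 4.13 with DGLA, against 4.84, 5.09 and 5.34 with GLA and 6.49, 6.10 and 6.02 in control (DGLA minus GLA -1.09, SE 0.166, adjusted p = 0.0415). It was the single call among 247 C-type lectin domain genes measured by a probe set of 1 symbol (0.0392% of all genes were called lower). Their median difference was -0.03. DGLA arrays lay below GLA arrays without overlap in 25 of the 247 and above in 11 (5.08% and 5.75% of all genes). Lysozymes cut bacterial cell walls. The gene lys-2 (Y22F5A.5) was at 6.29, 6.28 and 6.29 with DGLA, against 7.05, 7.07 and 7.08 with GLA and 7.24, 7.24 and 6.95 in control (DGLA minus GLA -0.78, SE 0.113, adjusted p = 0.0355). The GLA arrays lay within the range of control. Among 16 lysozyme genes no other was called, and lys-7, chosen after its values were seen, averaged 6.59 with DGLA and 6.06 with GLA (adjusted p = 0.217), with control at 6.75. A further 46 genes of gut defence, saposin-like and thaumatin-like proteins among them, held no call and had a median of -0.06.

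Outside these families, cysl-2 (K10H10.2), which detoxifies cyanide and is known as a target of the hypoxia factor HIF-1, was at 6.31, 6.22 and 6.21 with DGLA, against 6.87, 6.95 and 6.88 with GLA and 6.95, 6.98 and 6.82 in control (DGLA minus GLA -0.65, SE 0.0983, adjusted p = 0.0403). GLA overlapped control. F09C8.1 was at 4.74, 4.33 and 4.48 with DGLA, against 5.61, 5.38 and 5.76 with GLA and 6.52, 6.26 and 6.19 in control (DGLA minus GLA -1.06, SE 0.151, adjusted p = 0.0323). The order of the groups was that of irg-5.

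Whether a call held with 1 array left out divides the 17 genes. Each such fit leaves 2 arrays in 1 group, so a call can end without resting on the array left out. The calls of nta-1, cdr-4, cpt-4, T16G1.6, ugt-37 and cyp-13A12 held whichever of the 6 arrays was left out, with adjusted p at most 0.039. Those of irg-5 (adjusted p 0.081 to 0.226), clec-174 (0.0725 to 0.23), C32H11.4 (0.0928 to 0.191), F55G11.8 (0.103 to 0.208), ugt-35 (0.0747 to 0.16), lys-2 (0.127 to 0.208) and cysl-2 (0.105 to 0.248) ended without any 1 of DGLA 1, DGLA 2, DGLA 3, GLA 1, GLA 2 and GLA 3. The calls of stdh-2 (0.0725 to 0.19) and cyp-33C2 (0.0709 to 0.112) held only without DGLA 2, that of F25D1.5 (0.0709 to 0.112 where it ended) only without DGLA 2 or GLA 2, and that of F09C8.1 (0.0664 to 0.19) only without DGLA 1. Directions did not turn in any of the 17. With 1 array left out, differences ran from -0.792 to -0.777 for lys-2 and -0.975 to -0.931 for F55G11.8. The ranges were wider for irg-5 (-1.64 to -1.42) and clec-174 (-1.22 to -0.967). The count of 22 probe sets was 11 without DGLA 1, 11 without DGLA 2, 8 without DGLA 3, 8 without GLA 1, 9 without GLA 2 and 8 without GLA 3. Without LNA 2 and LNA 3 it was 21, sharing 18 with the 22. Calls of stdh-2 (adjusted p = 0.079) and clec-174 (adjusted p = 0.078) then ended. With the 6 DGLA and GLA arrays alone, the calls of stdh-2 (adjusted p = 0.314), F09C8.1 (0.15), clec-174 (0.137), cysl-2 (0.109), F25D1.5 (0.0953), ugt-35 (0.0929) and cyp-33C2 (0.0915) ended.

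Genes next to the called ones were looked up after the calls were known. The 3 protein-coding neighbours on each side gave 98 measured genes, of which none was called in limma's test and 23 had DGLA and GLA arrays that did not overlap (10.8% of all genes). Most of those 23 differed in the same direction as the called gene beside them. The others were F55G11.10 and mbug-1 beside F55G11.8, fat-7 beside ugt-37 and cdr-6 beside cdr-4. Of those in the same direction, T16G1.7, clec-71, clec-72, ugt-34 and lys-1 bear the family name of the called gene, and shared probes could not be checked. Beside cpt-4, the DGLA arrays lay above the GLA arrays for srr-8 (difference 0.21, at a signal below the lower quartile), srr-6 (0.35), srr-4 (0.39) and swt-7 (0.31). Beside F55G11.8, F55G11.2 averaged 5.73 with DGLA and 6.51 with GLA (difference -0.78, adjusted p = 0.387), while mbug-1 (0.39) and F55G11.10 (0.15) had positive differences with arrays that did not overlap. Beside clec-174, clec-71 averaged 5.39 with DGLA and 5.93 with GLA (difference -0.54, adjusted p = 0.737). Beside irg-5, dct-17 averaged 6.52 with DGLA and 7.35 with GLA (difference -0.83, adjusted p = 0.331).

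Fewer than 10 genes were called higher, so the next 3 by p are given as values that did not pass. The glutathione S-transferase gene gst-5 was at 5.08, 4.72 and 4.75 with DGLA and at 4.07 on each GLA array, where the deposited value is the same to the last digit (difference 0.78, SE 0.126, adjusted p = 0.0638). That was so on the 3 GLA arrays of 85 probe sets and on the 3 DGLA arrays of 75. F14D7.18 was at 4.96, 5.08 and 5.09 with DGLA, against 4.47, 4.47 and 4.28 with GLA (difference 0.64, adjusted p = 0.108), and T16G1.7 was the third. Of 48 glutathione S-transferase genes none passed in limma's test, and their median was -0.03. Beside gst-5, the list's members gst-33 and gst-44 did not pass, gst-33 at 7.10, 6.35 and 6.62 with DGLA, against 5.66, 5.67 and 5.97 with GLA (adjusted p = 0.288), and gst-44 at 4.06, 3.95 and 4.23 with DGLA, against 4.50, 4.77 and 4.77 with GLA (adjusted p = 0.115).

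The enzymes that make and use these acids did not pass. The elongase gene elo-1, whose product lengthens GLA, was at 12.08, 12.005 and 11.96 with DGLA, against 11.97, 11.96 and 11.87 with GLA, and the 95% interval of its difference was -0.10 to 0.27. The desaturase gene fat-4, whose product uses DGLA, differed by 0.0052 (interval -0.19 to 0.20), and fat-3, whose product makes GLA, by 0.19 (-0.06 to 0.45). For each of these 3 enzymes a 2-fold difference in either direction lies outside the interval. All 6 genes of polyunsaturated fatty acid synthesis had positive differences, with a median of 0.16, and in 3 of them DGLA arrays lay above GLA arrays without overlap (5.75% of all genes). The elongase elo-2 (0.24, interval 0.03 to 0.45, adjusted p = 0.928), the omega-3 desaturase fat-1 (0.18, -0.02 to 0.39) and the delta-12 desaturase fat-2 (0.14, -0.05 to 0.32) are those 3.

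The delta-9 desaturases, which make monounsaturated acids, had small positive differences and were not called. The gene fat-5 was at 5.70, 5.74 and 5.64 with DGLA, against 5.52, 5.602 and 5.36 with GLA and 4.14, 4.22 and 4.64 in control (DGLA minus GLA interval -0.10 to 0.50). The genes fat-6 (0.22, interval 0.02 to 0.42) and fat-7 (0.25, -0.10 to 0.60) differed to a like degree, and in all 3 genes DGLA arrays lay above GLA arrays without overlap (5.75% of all genes). The elongases of branched-chain acids differed by -0.04 for elo-5 (interval -0.25 to 0.17) and 0.01 for elo-6 (-0.38 to 0.41).

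**Figure D4:**
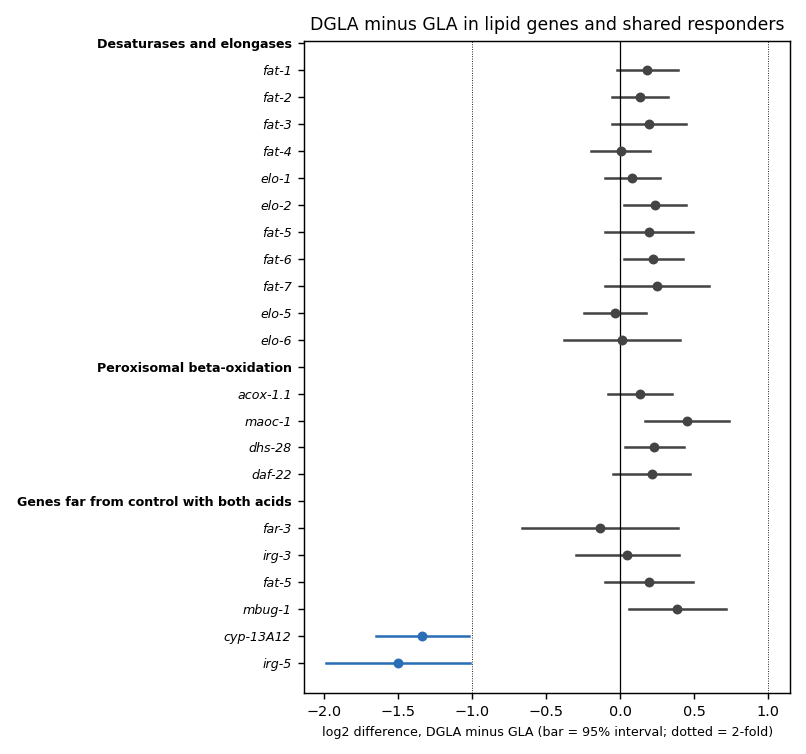
Difference between DGLA and GLA (horizontal axis, log2, DGLA minus GLA) with its 95% interval for the desaturases and elongases, 4 enzymes of peroxisomal beta-oxidation and 6 genes that both acids moved far from control. Intervals of the uncalled genes drawn (dark) lie within the dotted 2-fold lines, while those of cyp-13A12 and irg-5 (blue, called) lie below -1.

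Fatty acid breakdown held the single call of cpt-4. Peroxisomal beta-oxidation shortens very long and branched acyl chains and makes the side chains of ascaroside pheromones. None of its 10 genes passed in limma's test, and the median difference was 0.12. The hydratase gene maoc-1 was at 8.49, 8.14 and 8.25 with DGLA, against 7.91, 7.89 and 7.74 with GLA and 6.92, 7.05 and 7.08 in control (DGLA minus GLA 0.45, interval 0.16 to 0.74, adjusted p = 0.715). The dehydrogenase gene dhs-28 (0.23, 0.03 to 0.43), the thiolase gene daf-22 (0.21, -0.05 to 0.47) and the acyl-CoA oxidase gene acox-1.1 (0.14, -0.08 to 0.35) had the same sign, and acox-1.3 the other (-0.50, -0.72 to -0.27, adjusted p = 0.257). All 10 intervals lay within 2-fold.

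None of 13 acyl-CoA dehydrogenase genes passed, with a median of -0.02. Among 17 genes of the later beta-oxidation steps none passed either, 14 had positive differences and the median was 0.09. The hydroxyacyl-CoA dehydrogenase gene hacd-1 was at 6.46, 6.22 and 6.57 with DGLA, against 5.81, 6.16 and 5.64 with GLA and 6.87, 7.12 and 7.20 in control (adjusted p = 0.727 for DGLA minus GLA), so that both acids lay below control. Peroxins, which build peroxisomes, held no call, and their median was 0.11. Their differences were positive in 10 of 11 genes (12879 of 25478 over all genes). DGLA arrays lay above GLA arrays without overlap in 1 of 11, prx-2 (5.75% of all genes). The largest of these differences was in prx-2 (0.50, interval 0.24 to 0.76, adjusted p = 0.442).

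Lipid storage and transport genes were likewise without calls. The perilipin gene plin-1, which coats lipid droplets, was at 12.09, 12.13 and 12.05 with DGLA, against 11.72, 11.71 and 11.73 with GLA and 11.70, 11.63 and 11.79 in control (DGLA minus GLA 0.37, SE 0.0772, adjusted p = 0.272). Its DGLA arrays lay above both other groups, 1.29-fold above GLA. The synthetase genes acs-17 (0.37) and acs-22 (0.30) were foremost among 30 acyl-CoA synthetase and acyl-CoA binding genes, whose median was 0.04. No call was made among 8 secreted fatty acid and retinol binding (far) genes, 9 intracellular lipid binding genes, 8 lysosomal lipases, 13 genes of phosphatidylcholine and S-adenosylmethionine synthesis, 3 genes of ether lipid synthesis or 18 regulators of fat metabolism. Medians ran between 0.0048 for the intracellular lipid binding genes and 0.17 for ether lipid synthesis. Among the regulators nhr-10 was foremost (0.36, interval 0.14 to 0.59, adjusted p = 0.714).

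Several genes were far from control with both acids and close to each other between them. The gene far-3 was at 9.21, 9.13 and 8.91 with DGLA, against 9.40, 9.13 and 9.14 with GLA and 4.35, 4.20 and 4.05 in control. The acids overlapped, and the 95% interval of DGLA minus GLA was -0.66 to 0.39. The infection response gene irg-3 was at 9.68, 9.51 and 9.44 with DGLA, against 9.56, 9.43 and 9.49 with GLA and 6.84, 6.87 and 6.54 in control (interval -0.30 to 0.40). For both genes a 2-fold difference between the acids in either direction lies outside the interval, and differences within the interval were not excluded. The beta-carotene oxygenases, which split carotenoids, were both lower with DGLA than with GLA and neither passed, bcmo-2 at 6.94, 7.10 and 6.86 with DGLA, against 7.38, 7.46 and 7.40 with GLA (adjusted p = 0.545), and bcmo-1 with an interval of -0.94 to 0.16.

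**Figure D5:**
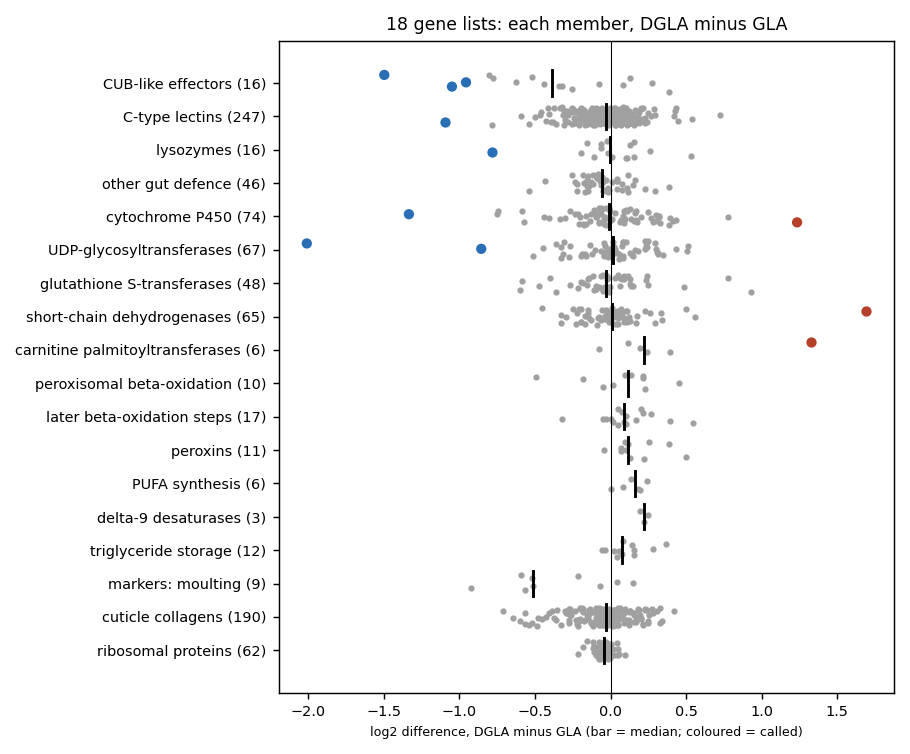
Difference between DGLA and GLA (horizontal axis, log2, DGLA minus GLA) for each member of 18 gene lists, with the number measured in brackets, a black bar for the list's median and called members in colour. The CUB-like list (median -0.39) and the moulting markers (median -0.51) lie lowest, and most lists are centred near 0.

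Of the 17 called genes, 13 stood on a gene list, and stdh-2, F25D1.5, F09C8.1 and cysl-2 on none. In limma's test no member passed among 271 nuclear hormone receptor genes, 190 cuticle collagen genes, 109 neuropeptides, 62 ribosomal proteins, 49 heat shock and chaperone genes, 43 ABC transporters, 36 respiratory chain genes, 31 proteasome genes, 11 genes of glutathione peroxidases and glutathione synthesis and 6 iron genes. Iron storage and glutathione peroxidases bear on lipid peroxidation. The ferritin gene ftn-1 averaged 3.96 with DGLA and 3.62 with GLA (adjusted p = 0.916), and the peroxidase gene gpx-6 averaged 2.93 with DGLA and 2.65 with GLA, near or below the lower quartile. The peroxisomal catalase gene ctl-2 averaged 10.14 with DGLA and 9.81 with GLA (difference 0.33, interval 0.09 to 0.57, adjusted p = 0.871).

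Stage and tissue were followed with markers. The 9 measured moulting markers had a median difference of -0.51 with none called. A 95% interval within a 2-fold difference was found in 4 of the 9 (98.6% of all genes). Of these markers 7 were lower with DGLA, and DGLA arrays lay below GLA arrays without overlap in 3 (5.08% of all genes). Their mean was 9.07, 9.15 and 9.48 with DGLA, against 9.76, 9.56 and 9.44 with GLA and 9.73, 9.22 and 8.61 in control, so the acids overlapped, and GLA 1 alone lay outside the range of control. Epidermal markers had a median of -0.14, and 116 of 190 collagen genes had negative differences (median -0.03). Germline (median -0.01), sperm (0.02), and oocyte and embryo markers (0.03) had no member whose arrays were apart. Of 8 measured adult stage markers (median -0.09), DGLA arrays lay above GLA arrays without overlap in 2 and below in 2 (5.75% and 5.08% of all genes). On the separate list of 15 major sperm protein genes they lay below in 3 and above in 0 (median -0.11). No member of these lists was called. The part of moulting stage in the differences of the called genes was not tested.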

How the data were processed

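Affymetrix arrays were hybridised with biotin-labelled RNA of 12 samples, 3 each for DGLA, GLA, LNA and control. The deposited log2 signals were made by the authors with RMA (a log2 summary per probe set), per the submitters' processing notes, which list Transcriptome Analysis Console and Affymetrix Expression Console as tools. The sources used here give no versions, options or genome build, and no scanner intensities or probe sequences were used. Group means of all 12 arrays were fitted with limma 3.58.1 in R 4.3.3 (lmFit, eBayes, default settings), and DGLA minus GLA was taken as a two-sided moderated test with Benjamini-Hochberg adjustment over all 29317 probe sets and no filter on dim ones. Called means an adjusted p under 0.05. The total degrees of freedom were 11.6, and the median standard error of a difference was 0.136. The number of arrays limits the precision. Every adjusted p in the text comes from this fit unless an alternative is named.

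Of the probe sets, 25546 carried 1 gene symbol, 646 several and 3125 none, and 25495 of the first kind matched the WBcel235 gene table by identifier with 0 symbols changed. A gene was taken by its probe set with the highest mean. Each named gene had only 1 such probe set. Near-identical genes of a family may share probes, which could not be checked. Named were up to 15 called genes per direction without overlap of arrays, filled to 10 with uncalled ones where these did not overlap, up to 4 called or else 2 uncalled members per list, and 2 fixed sets of enzymes and responders. Members and lists were chosen with earlier results of these data known. The fit was checked on simulated data. A planned look at promoter motifs was not run, as no sequences were used here.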

Additional observations from a re-analysis of the deposited data

How the results depend on the processing

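Against 22 probe sets (10 higher, 12 lower), 17 genes and 13 genes on lists, the fit of the 6 DGLA and GLA arrays alone called 13 probe sets (5 higher) and 11 genes. Array quality weights gave 27 genes. With 1 array left out the counts were 8 to 11 probe sets, 4 to 7 higher, 4 to 6 lower, 6 to 9 genes and 6 to 7 genes on lists. A replicate block gave 11 probe sets (6 higher, 5 lower), 9 genes and 8 on lists, all 11 among the 22. The calls of F25D1.5, irg-5, clec-174, F09C8.1, C32H11.4, ugt-35, lys-2 and cysl-2 then ended (adjusted p 0.0508 to 0.148). Deviations of same-numbered DGLA and GLA arrays correlated at 0.0127, -0.0192 and 0.0196. On the second principal component of all 12 arrays, array 1 was the highest of its group in control (2.75), LNA (16.4), GLA (1.04) and DGLA (24.6). Whether replicate numbers mark a batch was not tested. The other alternatives (LNA 2 and LNA 3 left out, cyclic loess, median centring, dim probe sets left out, eBayes with trend and robust) gave 21 to 26 probe sets. The calls of nta-1, cdr-4, cpt-4, T16G1.6, ugt-37 and cyp-13A12 held under all 14 alternatives, and all 17 genes kept their direction. The uncalled genes gst-5, F14D7.18, T16G1.7 and plin-1 passed under at least 1. Direction turned in 6 uncalled genes with 1 array left out, over ranges of -0.0186 to 0.181 for fpn-1.1, -0.254 to 0.0312 for mtl-1, -0.0557 to 0.0933 for mtl-2, -0.0208 to 0.0208 for fat-4, -0.0469 to 0.0983 for elo-6 and -0.0216 to 0.103 for irg-3. It also turned for fat-4 under cyclic loess (-0.00103) and for elo-6 under array weights (-0.0211). The causes were not tested.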

Other observations

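Some lists without a call had more members apart between DGLA and GLA in one direction than the 5.75% (above) and 5.08% (below) of all genes. DGLA arrays lay above GLA arrays without overlap in 17 of 109 neuropeptide genes and below in 1, with a median difference of 0.06. Among 35 genes of autophagy and the V-ATPase, which acidifies lysosomes, 7 lay above and 0 below, with a median of 0.05, and lgg-1, the ubiquitin-like protein of autophagosomes, differed by 0.30. Among 35 carboxylesterase genes 7 lay above and 0 below (median 0.04). Lists of lipid genes did so too. Of 17 genes of the later beta-oxidation steps 6 lay above and 1 below, and of 10 genes of peroxisomal beta-oxidation 4 and 1. Of 13 genes of phosphatidylcholine and S-adenosylmethionine synthesis 4 lay above and 0 below. Ribosomal protein genes lay below in 12 of 62 and above in 0, and 53 of 62 differences were negative (median -0.04). Members of a list share arrays and are not independent, and no test was made of these counts.

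The efflux transporter genes pgp-9 (difference 0.51) and pgp-1 (0.47) were foremost among 43 ABC transporter genes, and neither passed. The vitellogenin genes, which encode yolk proteins, had differences between -0.26 and 0.35 over 5 members.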
